A study of Mus musculus with 8 samples.

Results

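The endoplasmic reticulum (ER) machinery for protein import, folding and disposal was followed here as 65 genes in AtT-20 cells, a mouse pituitary corticotrope line that secretes the peptides cut from pro-opiomelanocortin (Pomc). The genes were chosen by symbol, as ER chaperones, lectins, disulfide enzymes, oligosaccharyltransferase, translocon, signal peptidase, signal recognition particle, ER-associated degradation factors and stress sensors. They made up 65 of the 12193 gene loci with a value, and all 65 passed the filter on low values that left 10874 loci to test. The study measured mRNA by sequencing total RNA from cells grown in DMEM with 10% fetal bovine serum, to ask how epidermal growth factor (EGF) acts on the Pomc gene. There were 4 groups of 2 libraries each. Cells with the genotype EGFR received EGF for 3 h, EGF for 18 h or water as vehicle, and cells with the genotype Neo, the labelled control, received water. Both water groups were taken at 3 h. No Neo cells received EGF and no water group was kept for 18 h, so time in culture and EGF cannot be told apart at 18 h. The labels do not state the EGF dose, the species of the introduced receptor, or whether each line is a clone or a pool. Nothing in the labels says that the libraries of a group came from separate cultures, so p-values measure the spread between these libraries, which may be technical.

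Values are FPKM, sequenced fragments scaled to transcript length and to the library total, which allow levels of different genes to be set side by side per length. The FPKM of all loci summed to between 683834 and 808072 per library. Small RNA loci held 29.1 to 32.8% of that sum in EGFR libraries, against 39.0 and 33.2% in Neo libraries. The labels and files do not state the sequencing depth, so no counting interval accompanies a value. Egfr was at 25.9 to 31.9 FPKM in the EGFR libraries, against 0.227 and 0.0663 FPKM in the Neo libraries. The corticotrope markers Pomc (6981 to 8930 FPKM), Pcsk1 (353 to 443 FPKM), Tbx19 (83.8 to 113 FPKM) and Nr3c1 (32.8 to 43.7 FPKM) were detected in every library. Pitx1 (10.1 to 12.1 FPKM) and Neurod1 (10.5 to 13.5 FPKM) were lower, and Crhr1 and marker genes of other pituitary lineages, fibroblasts, endothelium and blood were not analysed here. In bulk RNA a change in the number of cells carrying a transcript and a change in transcript per cell cannot be told apart.

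Secretory proteins are recognised at the ribosome by the signal recognition particle, pass through the Sec61 channel, lose their signal peptide and receive N-linked glycans while they fold with the help of chaperones, lectins and disulfide isomerases. Chains that fail to fold are trimmed, pulled back to the cytosol and degraded by the proteasome. When unfolded chains build up, the sensors IRE1 (Ern1), ATF6 and PERK start the unfolded protein response, in which the transcription factors XBP1 and ATF6 raise ER chaperone genes through the ER stress response element. Corticotropes are secretory cells that carry a large load of Pomc through this route.

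After 18 h of EGF most of this machinery was higher than in water, led by the disulfide isomerase Pdia6, while after 3 h a smaller and mixed set had changed. The 65 genes together held 1.64 and 1.63% of the FPKM of protein-coding genes in EGFR water, 1.72 and 1.73% after 3 h of EGF, 1.98 and 1.98% after 18 h of EGF, and 1.60 and 1.60% in Neo water. Both 18 h libraries lay above all others, and the Neo libraries lay lowest. A moderated F test over the 4 groups (limma, Benjamini-Hochberg adjustment over all 10874 loci, threshold 0.05) called 55 of the 65 genes, beside 53.8% of all loci tested. Levels spanned a wide range: Hspa5 was the most abundant at a mean of 851 FPKM over the 8 libraries, and the oxidase Ero1lb the least at 3.64 FPKM.

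**Figure D1:**
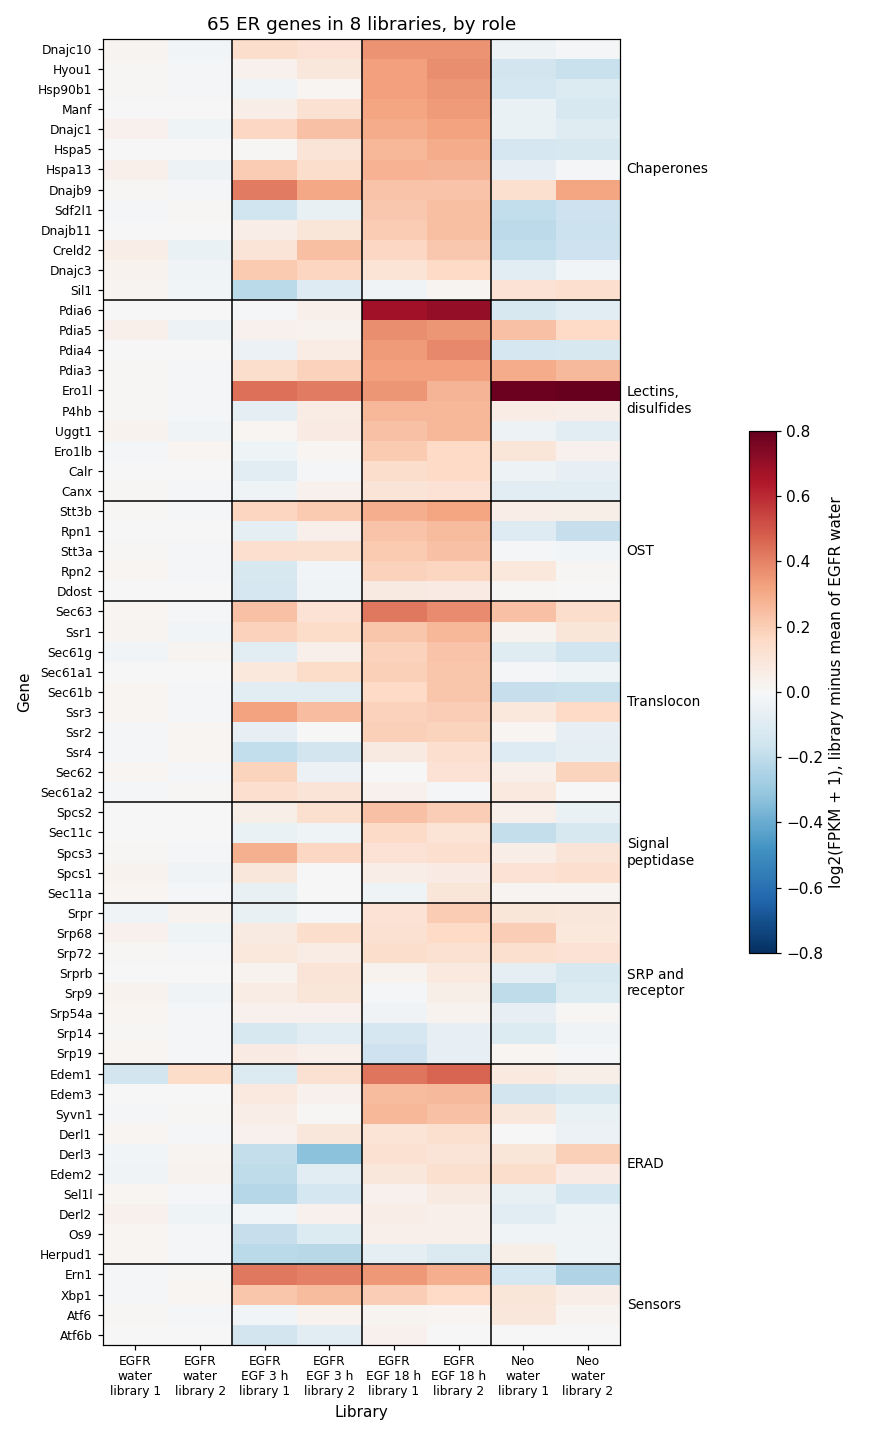
Difference of log2(FPKM + 1) from the mean of the EGFR water libraries for each of the 65 genes (rows, by role, sorted by the 18 h change) in each of the 8 libraries (columns). Both 18 h libraries are raised across most chaperones and all lectin and disulfide genes, with Pdia6 highest, and Ero1l stands out in both Neo libraries.

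Promoters are shown because the ER stress response element is the known site through which the unfolded protein response reaches these genes. RefSeq windows (build GRCm38.p6, 250 bases before to 50 after the annotated start) were matched by gene for 53 of the 65 genes. The element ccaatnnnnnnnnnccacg, searched on both strands, was found in 10 of the 53 windows (18.9%), beside 37 of 27025 windows of all genes (0.137%) and 29 of 17492 windows of protein-coding genes (0.166%). Its elements are given on the strand of the gene, with the fixed letters in capitals, so that one read from the other strand begins with CGTGG. Hsp90b1 has one element nearer to its start and one farther from it.
Calr: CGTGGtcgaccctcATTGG
Canx: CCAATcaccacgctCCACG
Creld2: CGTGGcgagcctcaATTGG
Derl3: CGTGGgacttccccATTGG
Dnajc3: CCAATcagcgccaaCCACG
Ero1lb: CGTGGtcccgcctcATTGG
Hsp90b1 (farther): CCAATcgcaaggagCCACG
Hsp90b1 (nearer): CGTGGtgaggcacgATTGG
Hspa5: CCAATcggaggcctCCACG
Pdia6: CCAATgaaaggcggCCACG
Syvn1: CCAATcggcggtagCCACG
The related element attggnccacg was in 2 of the 53 windows (3.77%), beside 0.0444% of all windows and 0.0629% of protein-coding ones.
Dnajb11: ATTGGcCCACG
Herpud1: ATTGGgCCACG
The short motifs contained in these elements were common by comparison: CCACG was in 75.5% of the 53 windows and 35.5% of all windows, and CCAAT was in 66% and 41.1%. The 19-base element counts once more under each of these shorter motifs. A match describes these letters only and says nothing of factor binding.

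The stretch before the deposited gene start is printed for Pdia6, the gene with the largest 18 h change, and for Hsp90b1, whose window held 2 elements, one on each strand. That of Pdia6 lies at chr12:17266339-17266544 on the plus strand (206 bases), and that of Hsp90b1 at chr10:86705510-86705694 on the minus strand (185 bases), with the element letters in capitals.
Hsp90b1: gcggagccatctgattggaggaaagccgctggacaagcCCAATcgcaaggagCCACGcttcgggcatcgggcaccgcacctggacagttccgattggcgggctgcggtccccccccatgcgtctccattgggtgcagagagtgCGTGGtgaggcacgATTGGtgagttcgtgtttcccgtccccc
Pdia6: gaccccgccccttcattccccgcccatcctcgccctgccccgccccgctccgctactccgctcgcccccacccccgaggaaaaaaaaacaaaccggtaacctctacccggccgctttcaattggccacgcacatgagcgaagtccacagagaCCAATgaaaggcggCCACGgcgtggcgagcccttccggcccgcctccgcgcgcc
The Hspa5 element lies 65 bases before the RefSeq start, and inside the gene as the deposited coordinates draw it. The Dnajb11 element begins 7 bases after the RefSeq start, and is also inside the gene by those coordinates. After 18 h of EGF, 9 of the 10 genes with the 19-base element were called higher (median log2 fold change 0.19), the exception being Derl3. Among these, the calls of Hsp90b1, Hspa5 and Pdia6 held with each library left out. Those of Calr, Canx, Creld2, Dnajc3, Ero1lb and Syvn1 did not. Of the 43 genes with a window and no such element, 27 were called higher (median 0.19). Over all loci the share called higher was 13.2%. After 3 h, 1 of the 10 was called higher (Dnajc3) and 1 lower (Derl3), beside 11.8% and 19.7% of all loci. The other 5 tested genes with the element, outside the ER set, had 18 h log2 fold changes against water between -0.17 (Ptgdr2) and 0.16 (Alg12). Of these 5, Ptgdr2 (-0.33) and Alg12 (-0.19) were called lower at 3 h, and Alg12 was called higher at 18 h against 3 h (0.34).

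The comparison of 18 h of EGF with water in EGFR cells asks how far the machinery had moved late in the treatment. Of the 65 genes, 43 were called higher, beside 13.2% of all loci, and 0 were called lower by limma, beside 18.7% of all loci. At an unadjusted p below 0.05, 46 were higher and 3 lower, a threshold at which the share of all loci was not counted. The median log2 fold change was 0.19 over the 65 genes and -0.03 over all loci, and 60 of the 65 were above 0. The changes were small in size: the fitted values ran from -0.12 for Srp19 to 0.69 for Pdia6. Lectin and disulfide genes were called higher in 10 of 10 cases, chaperones in 12 of 13, oligosaccharyltransferase subunits in 4 of 5, translocon subunits in 7 of 10, degradation factors in 4 of 10, sensors in 2 of 4, signal peptidase subunits in 2 of 5, and signal recognition particle and receptor genes in 2 of 8. The count of higher calls was 26 without 18 h library 1 and without water library 1, and 27 without 18 h library 2 and without water library 2, and 24 of the 43 calls held with each library left out in turn. Under a common FPKM sum 32 genes were higher, and over all loci 1189 were, against 1437 in the main fit. The calls of Calr, Canx, Creld2, Derl1, Dnajb9, Dnajc3, Edem1, Ero1lb, Rpn1 and Rpn2 were lost without at least 1 of the 18 h or water libraries. So were those of Sec11c, Sec61g, Spcs2, Srp72, Srpr, Ssr2, Ssr3, Syvn1 and Xbp1.

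The comparison of 3 h of EGF with water asks about the early response. Here 16 of the 65 genes were called higher, beside 11.8% of all loci, and 7 lower, beside 19.7% of all loci. The median log2 fold change was 0.04, against -0.04 over all loci. The largest increases were in the oxidase Ero1l, the sensor Ern1 and the cochaperone Dnajb9, and 4 of the 7 genes called lower were degradation factors. This split moved with scaling: 26 genes were higher and 6 lower under median-ratio scaling, 25 and 7 under quantile normalization, and 15 and 0 when every library was set to the same FPKM sum. The calls over all loci moved as well. From 1283 higher and 2142 lower they went to 1772 and 1562, 1554 and 1725, and 1346 and 440 under these settings in turn. Counts of higher calls were 10 without water library 1 and 6 without water library 2, and counts of lower calls were 2 without 3 h library 1 and 1 without either water library. The calls of Ern1, Ero1l, Dnajb9, Xbp1, Ssr3, Stt3b and Herpud1 held with each library left out, and Herpud1 was lost under the common sum (adjusted p = 0.0969). Those of Atf6b, Derl3, Dnajc1, Dnajc3, Dnajc10, Hspa13, Os9, Pdia3, Sec61a1 and Sec63 were lost without at least 1 library. So were those of Sel1l, Sil1, Spcs3, Ssr1, Ssr4 and Stt3a.

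Between the EGF groups, 38 genes were called higher at 18 h than at 3 h, beside 17.7% of all loci, and 2 lower, beside 16% of all loci. The median log2 fold change was 0.15, against 0.01 over all loci. All 5 oligosaccharyltransferase subunits, 9 of 10 lectin and disulfide genes, 8 of 10 degradation factors and 8 of 13 chaperones were called higher at 18 h, and the lower genes were Ero1l and Srp19. Without 18 h library 2 the higher count was 24, and the lower count was 0 without 18 h library 1 or 3 h library 1. Setting every library to the same FPKM sum left 17 genes higher, and over all loci 863, against 1922 in the main fit. Of the 40 calls, 22 held with each library left out. Calls lost without at least 1 library were those of Atf6b, Canx, Ddost, Dnajb11, Edem1, Ero1l, Ero1lb, Herpud1, Hspa5, Sec11c, Sec61g and Sec63. Those of Sil1, Srp19, Srpr, Stt3a, Stt3b and Syvn1 were lost in the same way. Of the calls that held, those of Calr, Dnajc10, Edem3, Os9, P4hb, Pdia3, Ssr2 and Uggt1 were lost under the common sum (limma adjusted p 0.0516 to 0.174).

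The EGFR and Neo lines, both in water, differed in few of these genes. Of the 65, 5 were called higher in EGFR cells, beside 3.11% of all loci, and 2 lower, beside 2.9% of all loci. The higher ones were the chaperone genes Dnajb11, Hyou1 and Sdf2l1 with Sec11c and Sec61b, and the lower ones were Ero1l and Pdia3. The median log2 fold change was 0.02, against 0.01 over all loci. Ero1l was the gene whose call held with each library left out: without either EGFR water library or either Neo library no gene was called higher, and without either 18 h library 2 were, since these share the estimate of spread. The calls of Dnajb11, Hyou1, Pdia3, Sdf2l1, Sec11c and Sec61b were lost without at least 1 library (adjusted p 0.0514 to 0.204 under the settings that ended them).

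**Figure D2:**
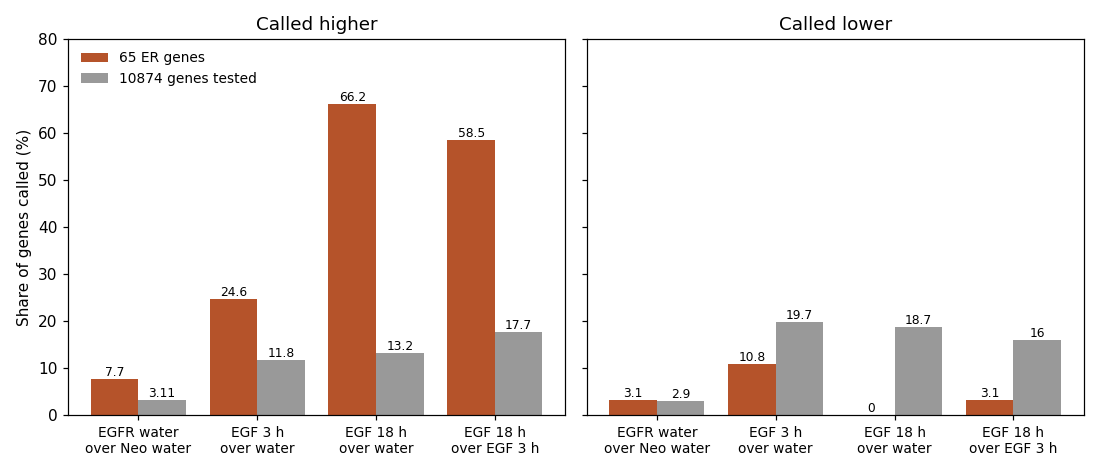
Share of genes (%) called higher (left panel) and lower (right panel) in each of the 4 comparisons, for the 65 ER genes and for all 10874 loci tested (limma, adjusted p below 0.05). After 18 h of EGF 66.2% of the ER genes were called higher against 13.2% of all loci, and 0% were called lower against 18.7%.

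The ER chaperones form the most abundant of these groups, and Hspa5 (BiP), the lumenal Hsp70 that holds unfolded chains, was its most abundant member. Hspa5 was at 816 and 816 FPKM in EGFR water, 822 and 877 after 3 h of EGF, 981 and 1004 after 18 h, and 743 and 747 in Neo water. The 18 h libraries were the highest and the Neo libraries the lowest, with no overlap between groups. The difference of EGFR from Neo water did not pass (0.13, limma adjusted p = 0.112). Hspa5 rose after 18 h of EGF against water by a log2 fold change of 0.28 ± 0.04 (SE, n = 2 each, limma adjusted p = 0.00275), while the 3 h value of 0.06 did not pass (adjusted p = 0.327). Hsp90b1 (GRP94), the ER Hsp90, was at 550 and 545 FPKM in EGFR water, 536 and 553 after 3 h, 688 and 700 after 18 h, and 497 and 507 in Neo water. Its 3 h libraries lay on either side of the water libraries, and both 18 h libraries lay above them. The 18 h log2 fold change was 0.34 ± 0.04 (limma adjusted p = 0.000486).

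Hyou1, the nucleotide exchange factor of BiP, rose in the same comparison by 0.35 ± 0.03 on the log2 scale (limma adjusted p = 0.000357). It was at 136 and 140 FPKM after 18 h of EGF and 109 and 108 FPKM in EGFR water. Manf, a small ER protein that can be secreted, was at 341 and 348 FPKM after 18 h and 275 and 273 FPKM in water (log2 fold change 0.33, limma adjusted p = 0.00104). The groups of both genes were separate, and their 3 h values of 111 and 115 FPKM for Hyou1 and 284 and 298 FPKM for Manf lay between the water and the 18 h libraries. Dnajc10 (ERdj5), a J-domain protein that reduces disulfides, was at 81.5 and 81.4 FPKM after 18 h and 64.1 and 62.4 FPKM in water (0.36, limma adjusted p = 0.000213). Sdf2l1, a partner of the J-domain protein Dnajb11, was at 92.5 and 93.8 FPKM in EGFR water, 83.4 and 89.4 after 3 h, 108 and 110 after 18 h, and 81.1 and 83.0 in Neo water. It was thus higher in EGFR than in Neo water, highest after 18 h, and its 3 h value of -0.11 against water did not pass (adjusted p = 0.0729). Dnajb11 itself (ERdj3), a J-domain cochaperone that binds unfolded chains, was at 137 and 137 FPKM in EGFR water and 119 and 122 FPKM in Neo water (0.19, limma adjusted p = 0.0248). Creld2, an ER-stress-induced protein, was at 44.0 and 45.7 FPKM after 18 h and 40.6 and 37.7 FPKM in water (0.19, limma adjusted p = 0.0356), and its 3 h change of 0.17 missed the threshold (adjusted p = 0.0505).

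Several cochaperones were already called higher at 3 h. Dnajb9 (ERdj4), a J-domain cochaperone of BiP that restrains IRE1, was at 16.9 and 16.7 FPKM in EGFR water, 22.8 and 21.1 after 3 h of EGF, 19.8 and 19.9 after 18 h, and 18.5 and 21.2 in Neo water. It was highest after 3 h among the EGFR groups, and the Neo libraries reached into that range. The log2 fold change against water was 0.36 at 3 h (limma adjusted p = 0.00647) and 0.23 at 18 h (adjusted p = 0.0323). The 18 h value did not differ from the 3 h one at the threshold (-0.14, adjusted p = 0.137). The J-domain proteins Dnajc1 and Dnajc3 and the Hsp70-type Hspa13 also rose at 3 h, by 0.20, 0.19 and 0.17. Sil1, the other exchange factor of BiP, was the 1 chaperone gene called lower at 3 h, and the 1 not called at 18 h against water.

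**Figure D3:**
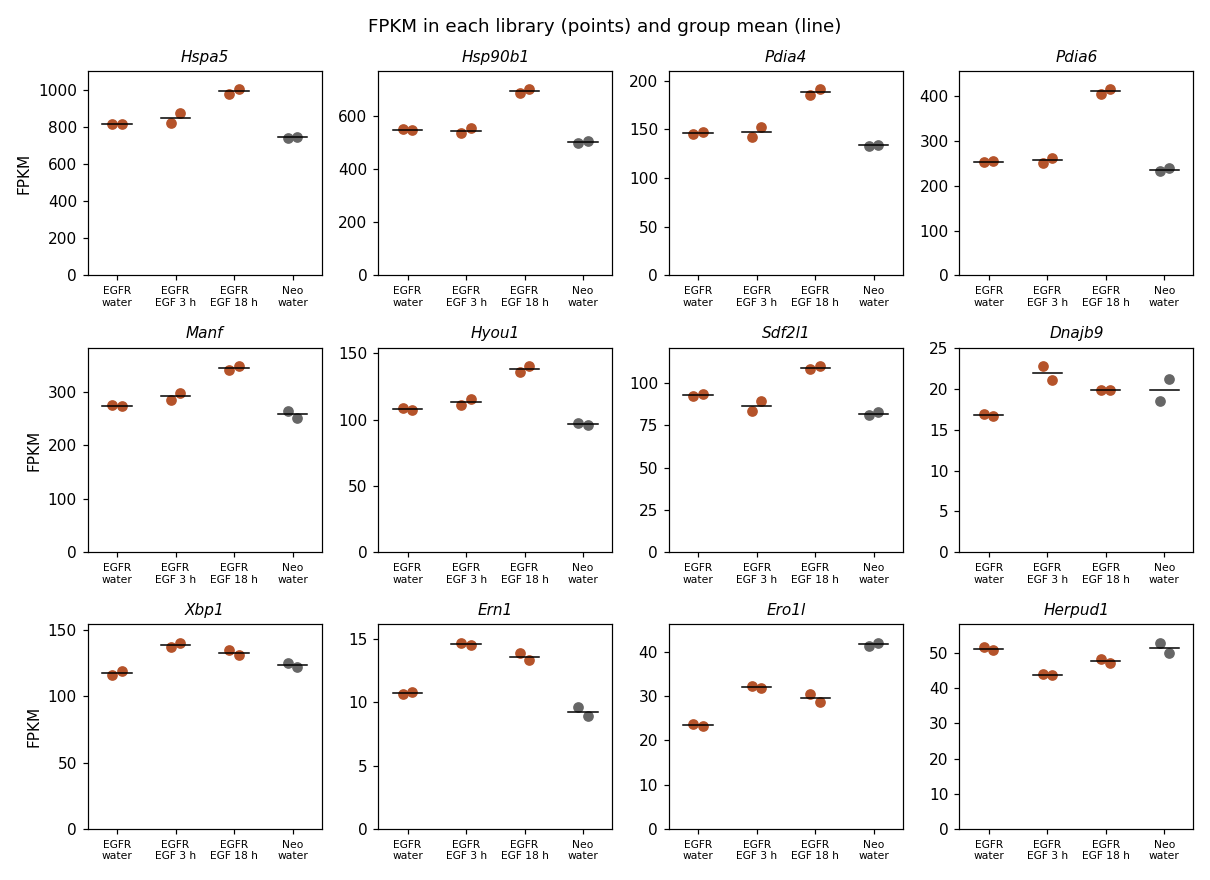
FPKM of 12 genes in each library (points) with group means (lines), for EGFR water, EGF 3 h, EGF 18 h and Neo water. Both 18 h libraries lie above every other for Hspa5, Hsp90b1, Pdia4, Pdia6, Manf, Hyou1 and Sdf2l1. Among the EGFR groups Dnajb9, Xbp1 and Ern1 have their highest mean at 3 h, and Ero1l is highest in Neo water. For Dnajb9, Xbp1 and Ern1, 18 h did not differ from 3 h at the threshold (limma adjusted p = 0.137, 0.178 and 0.145).

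The lectins and disulfide enzymes held the largest change of the set. Pdia6 (P5), a disulfide isomerase that works with BiP, was at 254 and 255 FPKM in EGFR water, 252 and 262 after 3 h of EGF, 406 and 416 after 18 h, and 232 and 239 in Neo water. Both 18 h libraries stood far above the rest, and the 3 h libraries lay on either side of the water libraries. The 18 h log2 fold change was 0.69 ± 0.04 against water (limma adjusted p = 2.49e-05) and 0.68 against 3 h (adjusted p = 0.000103), and 98.3% of all loci tested lay below Pdia6 in the 18 h comparison with water. Pdia4 (ERp72) followed the same course, at 185 and 191 FPKM after 18 h and 146 and 147 FPKM in EGFR water (0.36, limma adjusted p = 0.000753). Its 3 h libraries, at 142 and 153 FPKM, enclosed the water values. Pdia5, another isomerase, was low, at 7.40 and 7.30 FPKM after 18 h and 5.70 and 5.31 FPKM in water (0.36, limma adjusted p = 0.00176).

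Ero1l (ERO1 alpha), the oxidase that passes disulfides to the isomerases, was at 23.7 and 23.3 FPKM in EGFR water, 32.3 and 31.7 after 3 h of EGF, 30.4 and 28.7 after 18 h, and 41.3 and 41.9 in Neo water. No groups overlapped, and the Neo libraries were the highest. Ero1l fell by 0.80 on the log2 scale in EGFR against Neo water (limma adjusted p = 0.000178), rose by 0.43 at 3 h of EGF against EGFR water (adjusted p = 0.00042), and was lower at 18 h than at 3 h by a log2 fold change of -0.11 (adjusted p = 0.0467). Pdia3 (ERp57), the isomerase that binds the lectins, was at 130 and 129 FPKM in EGFR water, 142 and 147 after 3 h, 163 and 162 after 18 h, and 159 and 155 in Neo water. The EGFR water libraries were the lowest and the Neo libraries close to the 18 h ones. Its log2 fold changes were -0.28 for EGFR against Neo water (limma adjusted p = 0.00537), 0.16 at 3 h (adjusted p = 0.00884) and 0.33 at 18 h against EGFR water (adjusted p = 0.000336). P4hb (PDI), the most abundant of the group at a mean of 433 FPKM, was at 491 and 492 FPKM after 18 h and 389 and 426 FPKM after 3 h (0.27, limma adjusted p = 0.00498). The lectins Calr and Canx and the folding sensor Uggt1, which returns unfolded glycoproteins to the lectins, were all among the 10 called higher at 18 h against water.

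Of the oligosaccharyltransferase, which attaches N-linked glycans, the catalytic subunits Stt3a and Stt3b were called higher at both times. Stt3b was at 63.0 and 62.1 FPKM in EGFR water, 70.6 and 72.5 after 3 h of EGF, 76.8 and 77.9 after 18 h, and 65.0 and 64.6 in Neo water. Its libraries stepped up from water to 3 h to 18 h without overlap. The log2 fold change was 0.19 at 3 h (limma adjusted p = 0.00422) and 0.30 at 18 h (adjusted p = 0.000393), and Stt3a rose by 0.13 and 0.22. The ribophorin subunits were called higher at 18 h. Rpn1 was at 386 and 395 FPKM after 18 h and 331 and 330 FPKM in EGFR water (0.24, limma adjusted p = 0.00954), and Rpn2 rose by 0.18.

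In the translocon, the channel subunits and the accessory TRAP complex (Ssr1 to Ssr4) did not move as one. Sec63, which recruits BiP to the channel, was at 17.4 and 17.1 FPKM in EGFR water, 20.5 and 18.8 after 3 h of EGF, 23.5 and 22.8 after 18 h, and 20.4 and 19.1 in Neo water. The 18 h libraries were the highest and the EGFR water libraries the lowest. Sec63 rose by 0.40 at 18 h (limma adjusted p = 0.00122), and the pore subunits Sec61a1 and Sec61g rose by 0.20 and 0.21. Ssr3 was at 100 and 95.3 FPKM after 3 h and 81.3 and 79.3 FPKM in water, the largest 3 h change of this group at 0.28 (limma adjusted p = 0.00286). Ssr1 rose by 0.16 at 3 h and 0.24 at 18 h. Ssr4 went the other way at 3 h, at 211 and 218 FPKM after EGF and 239 and 244 FPKM in water (-0.17, limma adjusted p = 0.0135), and at 18 h it was at 254 and 266 FPKM, a log2 fold change of 0.27 over 3 h (adjusted p = 0.00223). Sec61b was at 262 and 257 FPKM in EGFR water and 228 and 229 FPKM in Neo water (0.18, limma adjusted p = 0.027), and it was 0.28 higher at 18 h than at 3 h.

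At 18 h against water, 2 of 5 signal peptidase genes were called higher, beside 13.2% of all loci. At 3 h the count was 1 of 5, beside 11.8% of all loci. For the signal recognition particle and its receptor the 18 h count was 2 of 8. Spcs3, a peptidase subunit, was at 53.3 and 49.1 FPKM after 3 h of EGF and 43.9 and 43.5 FPKM in EGFR water (0.22, limma adjusted p = 0.00932). Spcs2 rose by 0.21 at 18 h against water (limma adjusted p = 0.00997). The catalytic Sec11c was 0.16 higher in EGFR than in Neo water (limma adjusted p = 0.0409) and 0.13 higher at 18 h against EGFR water (adjusted p = 0.0238), whereas Sec11a was not called by the F test over the 4 groups (adjusted p = 0.586). Of the 8 genes for the particle and its receptor, Srp72 (0.13) and the receptor subunit Srpr (0.16) were called higher at 18 h against water. At 3 h 0 of the 8 passed limma's adjusted threshold, beside 11.8% of all loci called higher and 19.7% lower. At an unadjusted p below 0.05, 1 of the 8 was higher and 1 lower, with no share of all loci counted at that threshold. Srp19 was at 48.2 and 51.9 FPKM after 18 h and 56.9 and 55.9 FPKM after 3 h, a log2 fold change of -0.17 (limma adjusted p = 0.0164). Srp14, the most abundant of them at a mean of 170 FPKM, did not pass in any of the 4 comparisons, with a log2 fold change of -0.11 at 3 h (limma adjusted p = 0.0787).

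**Figure D4:**
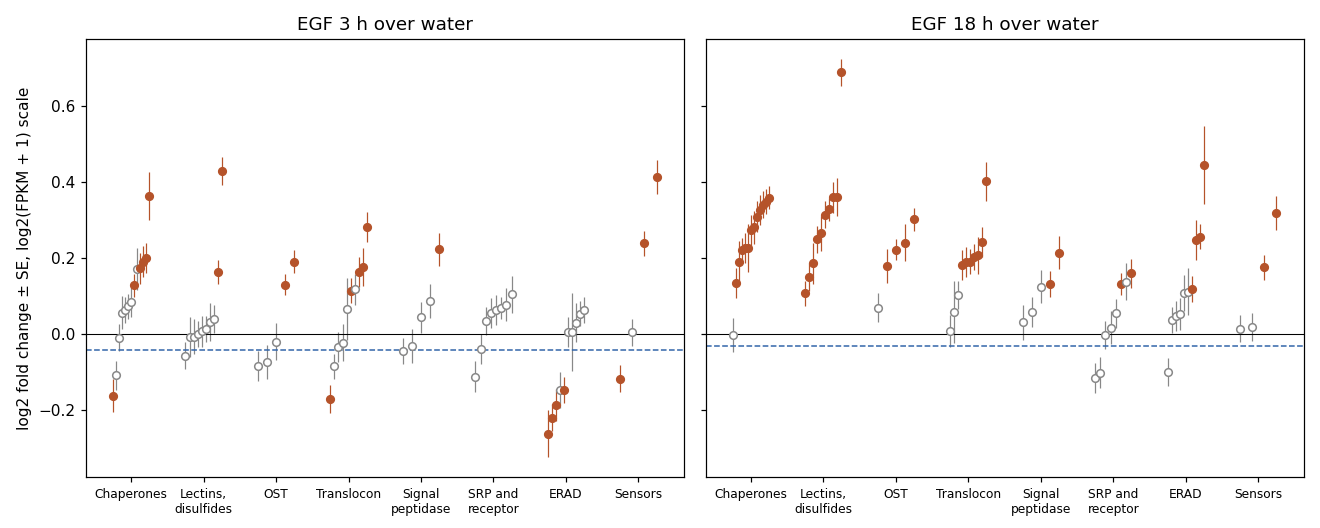
Log2 fold change (log2(FPKM + 1) scale) with its SE for each of the 65 genes, grouped by role, at 3 h (left) and 18 h (right) of EGF against EGFR water; filled points passed limma's test, open points did not, and the dashed line is the median of all loci. Degradation factors (ERAD) reach -0.26 (Derl3) at 3 h, and at 18 h all filled points lie above 0.

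Of the 10 degradation factors, 4 were called lower at 3 h against water, beside 19.7% of all loci. These were 4 of the 7 lower calls among the 65 genes. At 18 h against 3 h, 8 of the 10 were called higher, beside 17.7% of all loci. Herpud1, which helps assemble the degradation complex, was at 51.6 and 50.7 FPKM in EGFR water, 44.0 and 43.7 after 3 h of EGF, 48.4 and 47.1 after 18 h, and 52.8 and 49.9 in Neo water. The 3 h libraries were the lowest, and the Neo libraries enclosed the EGFR water ones. Herpud1 fell by 0.22 at 3 h (limma adjusted p = 0.00535), and its 18 h value of -0.10 against water did not pass (adjusted p = 0.077). Sel1l, the adapter of the ubiquitin ligase Syvn1 (HRD1), was at 46.0 and 48.9 FPKM after 3 h and 54.6 and 53.4 FPKM in EGFR water (-0.19, limma adjusted p = 0.0176). At 18 h it was at 55.4 and 56.8 FPKM, back in the range just above water. The lectin Os9 and the channel protein Derl3 also fell at 3 h, Derl3 being at 4.40 and 3.91 FPKM after EGF and 5.08 and 5.25 FPKM in water (-0.26, limma adjusted p = 0.0185).

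At 18 h against water, 4 of this group of 10 were called higher, beside 13.2% of all loci. Edem1, which trims mannose from misfolded glycoproteins, was at 17.0 and 17.5 FPKM after 18 h and 11.1 and 13.8 FPKM in EGFR water (0.45 ± 0.10, limma adjusted p = 0.0152). Its groups did not overlap, although the water libraries were themselves apart. Edem3 rose by 0.26 (limma adjusted p = 0.00116) with tight libraries, at 23.7 and 23.8 FPKM after 18 h and 19.7 and 19.8 FPKM in water. Syvn1 rose by 0.25 and Derl1 by 0.12. Edem2 was called higher at 18 h against 3 h, at 24.9 and 25.5 FPKM after 18 h and 20.1 and 21.8 FPKM after 3 h (0.25, limma adjusted p = 0.00753).

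Of the sensors, Ern1 and Xbp1 rose early and Atf6 did not pass in any comparison. Ern1 (IRE1 alpha), the kinase and nuclease that splices Xbp1 mRNA, was at 10.6 and 10.8 FPKM in EGFR water, 14.7 and 14.5 after 3 h of EGF, 13.9 and 13.3 after 18 h, and 9.60 and 8.90 in Neo water. All EGF libraries lay above all water libraries. The log2 fold change was 0.41 ± 0.04 at 3 h (limma adjusted p = 0.00106) and 0.32 ± 0.04 at 18 h (adjusted p = 0.00194), and the difference of EGFR from Neo water missed the threshold (0.19, adjusted p = 0.0516). Xbp1 was at 116 and 119 FPKM in EGFR water, 137 and 140 after 3 h, 134 and 131 after 18 h, and 125 and 122 in Neo water. Its EGF libraries were the highest, and the EGFR water libraries the lowest. It rose by 0.24 at 3 h (limma adjusted p = 0.00265) and by 0.18 at 18 h (adjusted p = 0.00682). The 18 h level did not differ from the 3 h one at the threshold for Ern1 (-0.09, limma adjusted p = 0.145) or Xbp1 (-0.06, adjusted p = 0.178). One FPKM per gene does not separate spliced from unspliced Xbp1. Atf6 stayed between 21.8 and 23.6 FPKM in the 8 libraries, and the 95% interval of its 18 h log2 fold change was -0.07 to 0.10. Atf6b, its paralog, was at 14.7 and 15.3 FPKM after 3 h and 16.4 and 16.3 FPKM in EGFR water (-0.12, limma adjusted p = 0.0414).

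Reads of some of these genes could not be assigned with certainty, because part of the transcript is shared with another annotated gene. The most affected were Sec61b (82.8% of the transcript), Srp54a (80.9%), Srpr (58.8%), Sec61a2 (37.1%), Srprb (29.0%), Sec61g (22.6%), Spcs2 (22.2%), Spcs1 (22.1%) and Ero1lb (21.7%). For Sec61a2 and Spcs1 the shared part belongs to the overlapping neighbours Nudt5 and Glt8d1. Values of these genes may include reads of the others. The labels do not say whether counting used strand, and the share of exon bases that overlap other annotated genes was 20.7% for Srprb, 19.9% for Sec61a2, 16.3% for Spcs1 and 15.7% for Hsp90b1.

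Other genes of the same pathways were read from lists outside the 65. Of 114 listed symbols outside the 65, 100 had a row and gave 101 tested loci. At 18 h of EGF against water 26 were called higher (25.7%, beside 13.2% of all loci) and 6 lower (5.9%, beside 18.7%). At 3 h against water 9 were higher (8.9%) and 18 lower (17.8%), shares near the 11.8% and 19.7% of all loci. At 18 h against 3 h 44 were higher (43.6%, beside 17.7% of all loci) and 3 lower (3.0%, beside 16%). In EGFR against Neo water 3 were higher and 1 lower, beside 3.11% and 2.9% of all loci. Other folding enzymes held the largest change: Fkbp11, an ER prolyl isomerase, was at 11.8 and 11.6 FPKM after 18 h and 6.38 and 6.20 FPKM in EGFR water (0.80, limma adjusted p = 5.82e-05). The Neo libraries were lower again, at 4.56 and 4.25 FPKM. The disulfide enzymes Txndc5 and Qsox1 rose by 0.50 and 0.36 at 18 h, and of the 26 folding enzymes tested 11 were called higher and 1 lower. The ER-membrane transcription factor Creb3l1 rose by 0.38 at 18 h, at 3.39 and 3.07 FPKM against 2.18 and 2.31 FPKM in water (limma adjusted p = 0.017), a call lost without 18 h library 1 or either water library (adjusted p 0.0562 to 0.0981). Sumf2, an ER protein related to the sulfatase-modifying enzyme, was 0.38 higher at 18 h than at 3 h (limma adjusted p = 0.00382). Ube2g2, a ubiquitin-conjugating enzyme of ER-associated degradation, rose by 0.28 at 3 h (limma adjusted p = 0.0035) and 0.31 at 18 h (adjusted p = 0.0018). Between the lines, the degradation factor Vimp was 0.17 higher and the mannosyltransferase Alg2 differed by -0.23 in EGFR against Neo water, and both calls were lost without any 1 of the 4 water libraries (adjusted p up to 0.211).

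The PERK arm and integrated stress response, the third branch of the unfolded protein response, was read from a list of 16 genes. At 3 h against water 3 were called higher and 6 lower, beside 11.8% and 19.7% of all loci. At 18 h against water 1 was higher and 3 lower, beside 13.2% and 18.7% of all loci, and at 18 h against 3 h 4 were higher and 2 lower, beside 17.7% and 16%. Chac1, a glutathione-degrading enzyme induced by ATF4, was at 84.1 and 85.6 FPKM after 3 h of EGF and 114 and 113 FPKM in EGFR water (-0.42, limma adjusted p = 0.000449). At 18 h it was at 93.4 and 91.1 FPKM, and still lower than in water by a log2 fold change of -0.30 (adjusted p = 0.00108). The transcription factors Atf3 and Nupr1 fell by 0.38 and 0.32 at 3 h and were higher at 18 h than at 3 h by 0.37 and 0.38. Ddit3 (CHOP) was at 47.4 and 49.2 FPKM in EGFR water and 36.4 and 38.4 FPKM in Neo water (0.36, limma adjusted p = 0.00669, and 0.0602 without water library 2), and its values of 0.06 at 3 h and 0.02 at 18 h of EGF did not pass. The comparisons at 3 h and 18 h share the same EGFR water libraries, so their values are given side by side and no overlap of their calls was tested.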

How the data were processed

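RNA from AtT-20 cells was sequenced after cDNA synthesis, per the labels' protocols. The authors deposited FPKM per gene locus for each of the 8 libraries. Per the submitters' processing notes, the build was mm10 and the tools included DESeq, HTSeq 0.5.4, TopHat2 2.0.8 and Trimmomatic 0.22. No source used here names the program that gave FPKM. FPKM depends on the library total, so a few abundant RNAs move all other genes.

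Loci that reached 1 FPKM in 2 or more libraries (10874) entered limma 3.58.1 in R 4.3.3 on log2(FPKM + 1), with a variance trend and all 4 groups in the fit (4 residual degrees of freedom). A fold change on this scale understates that of low genes. P-values were adjusted by Benjamini-Hochberg over all genes of a comparison, with a threshold of 0.05. The script was tested on simulated data. Shared transcript sequence was found with minimap2 2.31. Python 3.11.15, pandas 2.3.3, NumPy 2.4.6 and matplotlib 3.10.9 were used otherwise.

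The members, role classes and lists were chosen with earlier results of these data known. In each comparison a rule picked 12 fixed genes, up to 4 called members of each role by size of change (otherwise the most abundant) and up to 4 called genes outside the set. Not every picked value is printed. Between EGFR and Neo water, Hsp90b1, Xbp1, Herpud1, Dnajb9, Manf, Creld2 and Pdia4 did not pass (limma adjusted p 0.0808 to 0.940). At 3 h against water, Hsp90b1, Hyou1, Manf and Pdia4 did not pass. At 18 h against 3 h, Hsp90b1, Hspa5, Hyou1, Manf, Pdia4 and Sdf2l1 were higher and Creld2 did not pass. Sil1, the 18 h against 3 h value of Ero1l, Calr, Canx, Uggt1, Sec11a, Ptgdr2, Alg12 and the sums by group were named after their values were seen. Alternatives changed the scaling, filter, pseudocount, trend, fit and libraries, and the restriction to protein-coding genes, its common sum and the crossed pairing were added after seeing the data. Replicate numbers pair no samples by the labels. Deviations of same-numbered libraries correlated at 0.31 between the EGF 18 h and Neo water groups. Every other pair of groups lay between -0.17 and 0.03.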

Additional observations from a re-analysis of the deposited data

Results flagged for a closer look

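In 8 genes the test of 18 h against 3 h of EGF passed in the direction opposite to that of the called 3 h change against water. The log2 fold change at 18 h against 3 h was 0.37 for Derl3, 0.27 for Ssr4, 0.24 for Sel1l, 0.18 for Os9, 0.16 for Sil1, 0.13 for Atf6b and 0.12 for Herpud1, all of which had fallen at 3 h. It was -0.11 for Ero1l, which had risen at 3 h. Both comparisons use the same 3 h libraries. The share of all loci meeting this rule was not counted, so it is not known whether 8 is unusual. Setting every library to the same FPKM sum ended the 3 h calls of the 7 genes that had fallen. The same scaling ended the 18 h against 3 h calls of Ero1l (limma adjusted p = 0.102), Os9 (0.144), Sil1 (0.267), Atf6b (0.313) and Herpud1 (0.324), while those of Derl3, Ssr4 and Sel1l held.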

How the results depend on the processing

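Of 99 called results named by rule, 49 kept their call under every alternative run, 50 lost it under at least 1, and 0 reversed direction. Members called higher and lower follow for settings that moved a count by over 1.5 times, with some of the smaller shifts. In EGFR against Neo water (5 and 2), they were 0 higher with only the 2 groups in the fit, 1 and 1 under a common FPKM sum, 4 lower under median-ratio scaling, 2 higher without the variance trend, 9 and 6 among protein-coding genes, 11 and 8 with those also set to a common sum, and 0 higher at an adjusted p below 0.01. At 3 h against water (16 and 7), they were 13 and 4 with 2 groups, 0 lower under the common sum, 26 higher under median-ratio scaling, 25 higher under quantile normalization, 31 higher with the protein-coding common sum, and 8 and 1 below 0.01. At 18 h against water (43 and 0), 1 gene was lower with 2 groups and among protein-coding genes, 27 were higher below 0.01, 32 under the common sum, 47 under median-ratio scaling and 50 with the protein-coding common sum. At 18 h against 3 h (38 and 2), they were 29 and 0 with 2 groups, 17 and 1 under the common sum, 1 lower without the filter or the trend, and 25 and 0 below 0.01.

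Leaving out each library in turn gave 0 to 5 higher and 1 to 2 lower between the lines, 6 to 15 and 1 to 9 at 3 h, 26 to 44 and 0 to 1 at 18 h, and 24 to 37 and 0 to 2 between 18 h and 3 h. The replicate block gave 2 higher between the lines and 1 lower between 18 h and 3 h, with 37 higher at 18 h against water. Crossed numbers in the replicate block gave 3 higher between the lines and 1 lower between 18 h and 3 h. These samples share only a number. The cause of these shifts was not tested. With 2 libraries a group and no depth, small changes near the threshold stay uncertain.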
